A study of Mus musculus with 3 samples.

Results

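The 8 genes Irf1, Irf2, Irf3, Irf4, Irf5, Irf7, Irf8 and Irf9 of the interferon regulatory factor (IRF) family were followed across 3 sorted cell populations of the adult mouse spleen. On the array they were represented by 14 probe sets, of 45101 in all, whose platform annotation names 1 of these symbols alone. The rule that picks them uses the gene names alone. RNA was measured on 1 Affymetrix expression array per population: Spic-negative monocytes, Spic-positive monocytes and macrophages of the red pulp, which take up old red blood cells and return their iron. All 3 groups carried the genotype Spic(igfp/+), 1 Spic allele with a green fluorescent protein (GFP) reporter, so the sort by GFP follows Spic, which encodes a transcription factor that these macrophages need. Both monocyte groups were sorted on CD11b and Ly6C and then split by GFP, and the macrophages on high GFP and high surface levels of the macrophage antigen that Adgre1 encodes. The labels do not say whether cells of several mice were pooled. With 1 array in each group there was no spread between animals and no significance test, so each difference below is a difference of log2 values between single arrays, and a close order of levels was not settled.

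Interferon regulatory factors share an N-terminal DNA-binding domain with a row of conserved tryptophans that reads GAAA-type sites, the core of the interferon-stimulated response element (ISRE). Irf3, Irf5 and Irf7 encode latent factors that are phosphorylated after pattern recognition receptors fire and that turn on interferon and inflammatory genes. Irf9 encodes the DNA-reading subunit of ISGF3, the complex that answers type I interferon, Irf1 encodes an activator induced by interferon gamma, and Irf2 encodes a factor that binds the same sites and often opposes it. Irf8 and Irf4 encode lineage factors that bind DNA weakly alone and team up with PU.1 (Spi1) or Spi-B (Spib); IRF8 is needed for the normal output of Ly6C-bearing monocytes and of many dendritic cells, and IRF4 for plasma cells and some dendritic cells.

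Levels are the authors' deposited log2 values. A gene with several probe sets is given by the one with the highest mean over the 3 arrays, called the brightest probe set, and log2 5.02, the median over every probe set except controls, served as the floor under which a level is near background. All 8 genes lay above the floor on every array, and all 14 probe sets did so on at least 1 array. Levels of different genes are not set against each other, since probe sets differ in how strongly they bind.

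Between the monocyte arrays none of the 8 genes differed by 2-fold. Of the 12375 genes compared, 3.49% passed 2-fold upwards and 3.06% downwards with Spic, so 0 of 8 is close to that background. The differences ran from -0.42 (Irf5) to 0.45 (Irf4), with a median of 0.19 against -0.06 for all genes compared. In red pulp macrophages against Spic-negative monocytes Irf1 and Irf8 were at least 2-fold higher and Irf2 and Irf7 at least 2-fold lower, 2 of 8 in each direction beside 19.6% of all genes higher and 11.3% lower. Against Spic-positive monocytes Irf8 was higher and Irf2 and Irf7 were lower, 1 and 2 of 8 beside 22.0% and 11.6% of all genes. Both macrophage comparisons share the macrophage array. The members' medians were -0.08 and -0.25, beside 0.03 and 0.10 for all genes, so the family had no common direction. A partial yardstick for measurement error is the gap between the differences given by the 2 brightest probe sets of 1 gene. Both read the same RNA on the same arrays, so the gap leaves out variation between sorts, amplifications, arrays and animals. A difference outside the gap is not thereby beyond such variation. Over 5509 genes with 2 such probe sets the median gap was 0.36 between the monocyte arrays, 0.56 in the comparison of macrophages with Spic-negative monocytes, and 0.64 in that with Spic-positive monocytes. Of the differences of the 8 genes between the monocyte arrays, those of Irf2, Irf4, Irf5 and Irf7 were larger than that median gap and the other 4 smaller. For 1 gene in 10 the gap was wider than 0.97, 1.67 and 1.83 in the same order of comparisons. On the brightest probe sets every monocyte difference of the 8 genes lay within that wider gap, and of the macrophage differences only those of Irf2 lay outside it. The dimmer Irf5 probe set gave -1.78 between the monocyte arrays and -1.94 in macrophages against Spic-negative monocytes, both outside it.

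**Figure D1:**
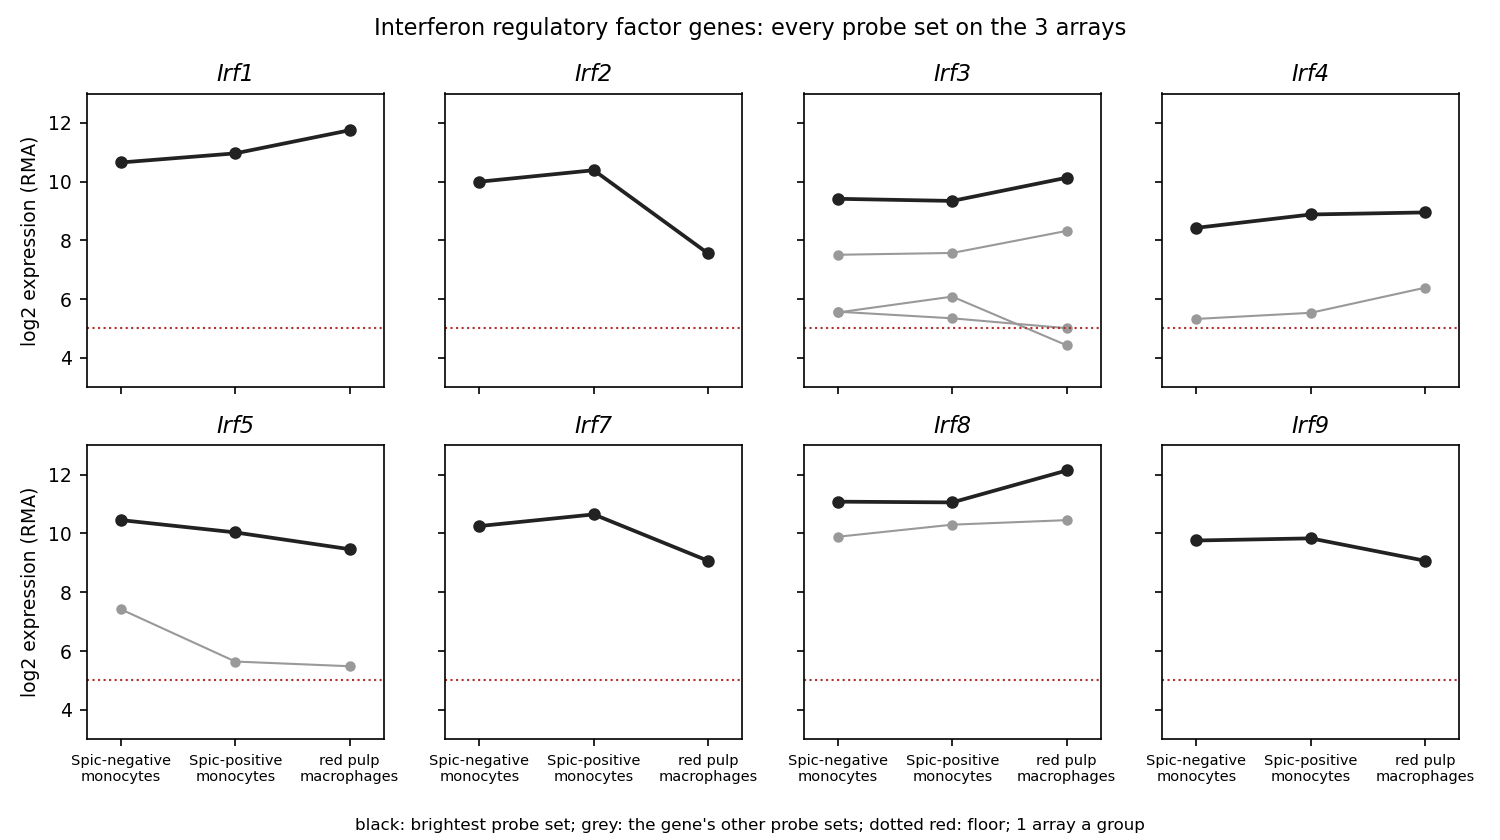
Log2 expression (RMA values, vertical axis) of all 14 probe sets of the 8 genes on the 3 arrays, 1 array per group, with the brightest probe set in black, further probe sets in grey and the floor of log2 5.02 dotted. Irf2 and Irf7 are lowest in macrophages, Irf1 and Irf8 highest there, and the 2 dim Irf3 probe sets run near the floor.

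The arrays also differed in transcripts of other cells, which matters because lymphocytes and dendritic cells use Irf4, Irf7 and Irf8 as well. The level of a marker list is given as the sum over its genes of the linear signal, on which 1 log2 step is a doubling. B cell markers summed to 576 on the Spic-negative array, 2437 on the Spic-positive array and 1769 on the macrophage array, with 5, 9 and 8 of 9 measured markers above the floor and 8 of 9 past 2-fold upwards between the monocyte arrays. Plasma cell markers summed to 8484, 7971 and 17487, erythroid markers to 173, 190 and 7061, and NK cell markers to 126, 175 and 1322. The markers of plasmacytoid dendritic cells summed to 1740, 2129 and 2387 and those of conventional dendritic cells to 1460, 1969 and 937. Xcr1 of the latter list and Epb42 of the erythroid list lay under the floor on all 3 arrays. The conventional list had a median difference of -0.12 between the monocyte arrays, with 3 of 6 markers above the floor higher in Spic-positive monocytes. Ccr7 (4.05) and Zbtb46 (1.25) were past 2-fold higher there, while Flt3, Btla and Cd209a were lower (-0.56, -0.55 and -0.34). Of the plasmacytoid list, Ccr9 (1.46 and 3.53) and Ly6d (2.25 and 2.89) exceeded Spic-negative monocytes on both other arrays. Bst2, also an ISGF3 target, was nearly level (-0.03 and 0.11). T cell markers summed to 227, 262 and 487 and neutrophil markers to 30147, 33575 and 31082. The markers of the sorted cells followed the labels: red pulp macrophage markers summed to 2288, 4854 and 67555, and monocyte markers to 28674, 23003 and 15162. Csf1r, which both cell types use, carries most of the last sum (log2 13.83 on the macrophage array), while the other 5 monocyte markers were lower in macrophages than in Spic-negative monocytes, with differences from -3.14 (Cx3cr1) to -5.50 (Ccr2). Sex-linked transcripts differed as well, with Xist at log2 4.63, 4.70 and 11.95 and the Y-linked gene Eif2s3y at 10.10, 9.56 and 3.31. By these transcripts the macrophage array read as RNA of female mice and both monocyte arrays as RNA of male mice. Sex and cell type therefore cannot be told apart in either macrophage comparison. All 18 hybridization controls read higher for Spic-positive than for Spic-negative monocytes, by log2 2.16 at the median, and the Gapdh control probe sets read higher at the 3′ than at the 5′ end, a sign of RNA length, by 0.48, 2.25 and 1.61 on the 3 arrays. The actin controls gave 0.74, 0.57 and 1.13, so the controls did not agree on the order of the arrays. The part of these differences in the results was not tested, and in sorted bulk RNA fewer cells of a type and less RNA per cell cannot be told apart.

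**Figure D2:**
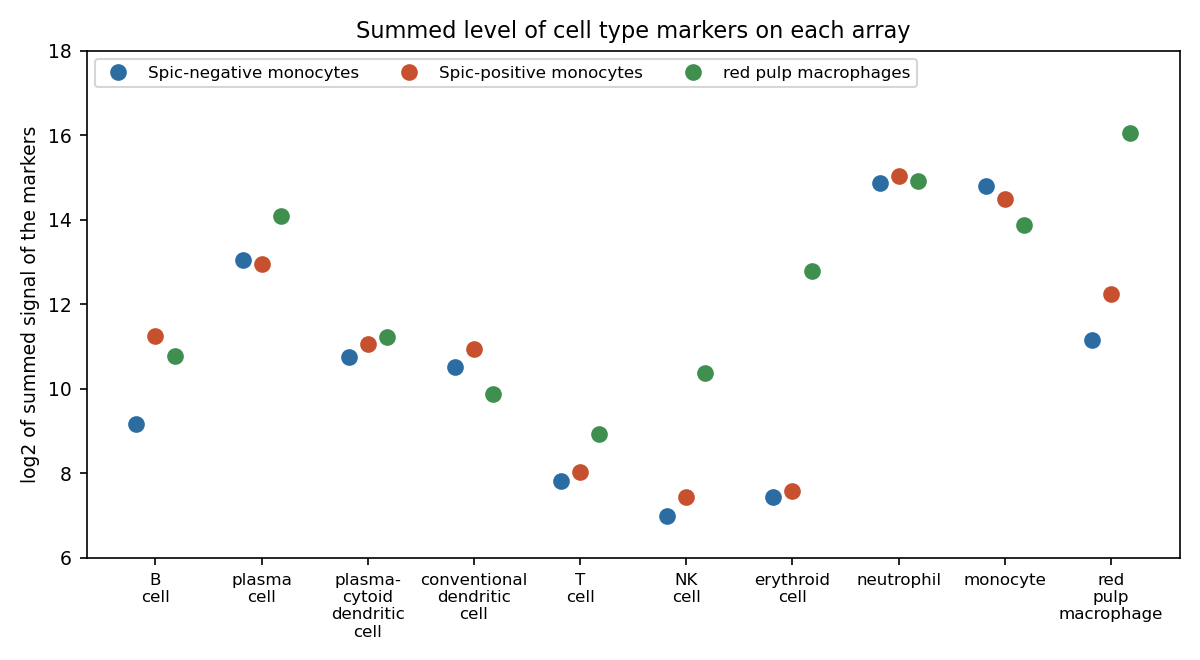
Summed linear signal of each marker list, on a log2 axis, for Spic-negative monocytes (blue), Spic-positive monocytes (orange) and red pulp macrophages (green), 1 array each. Erythroid, NK and plasma cell markers are highest on the macrophage array, and B cell markers are higher on the Spic-positive than on the Spic-negative array.

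Irf1 and Irf2, the activator and its frequent opponent, differed in opposite directions between macrophages and monocytes. Irf1 (probe set 1448436_a_at) stood at log2 10.65 on the Spic-negative array, 10.96 on the Spic-positive array and 11.75 on the macrophage array. It was therefore highest in macrophages, by 1.10 over Spic-negative monocytes (2.14-fold) and by 0.79 over Spic-positive monocytes, while the monocyte arrays differed by 0.31. In the first of these comparisons 2213 of the 12375 genes (17.9%) were higher in macrophages by at least as much, so the size of the Irf1 difference was common there. Irf2 (1418265_s_at) measured 9.997, 10.39 and 7.56 in the same order. It was lowest in macrophages by a wide margin, with differences of -2.44 (5.43-fold) and -2.83 (7.13-fold), and differed by 0.39 between the monocyte arrays. At least as low a difference was found for 182 genes (1.47%) against Spic-negative monocytes and for 70 genes (0.57%) against Spic-positive monocytes, which makes Irf2 the 1 member outside the middle 95% of all genes in the macrophage comparisons. Irf1 and Irf2 each rest on 1 probe set, as do Irf7 and Irf9 below. The ending _s_at of the Irf2 probe set marks a design that can bind more than 1 transcript.

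Irf8 and Irf4, the partners of PU.1, were as high or higher in macrophages. The brightest Irf8 probe set (1416714_at) measured 11.08 on the Spic-negative array, 11.06 on the Spic-positive array and 12.14 on the macrophage array. The monocyte arrays lay 0.03 log2 apart on it, and macrophages were higher by 1.06 and 1.09, or 2.09-fold and 2.12-fold. The other Irf8 probe set (1448452_at) measured 9.89, 10.30 and 10.45, so macrophages were again highest but by 0.56 and 0.15, and with the mean of both probe sets, 0.81 and 0.62, Irf8 no longer reached 2-fold. Irf4 measured 8.43, 8.88 and 8.95 on its brightest probe set (1421173_at) and 5.33, 5.54 and 6.39 on the other (1421174_at). Both placed Spic-negative monocytes lowest, by 0.45 and 0.21 against Spic-positive monocytes. Macrophages exceeded Spic-negative monocytes by 0.52 on the brightest and by 1.06 on the dimmer Irf4 probe set, and Spic-positive monocytes by 0.07 and 0.85. Irf4 is high in plasma cells and Irf8 is expressed in B cells; 4 of 5 plasma cell markers were past 2-fold higher in macrophages than in Spic-negative monocytes, from Jchain (1.55) to Mzb1 (4.55), with Xbp1 at -0.49. The B cell markers Ms4a1 and Cr2 differed by 2.39 and 2.48 between the monocyte arrays, and the part of either cell type in the Irf4 and Irf8 levels was not tested.

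Among the factors that receptors for microbial products switch on, Irf7 and Irf5 were lower in macrophages and Irf3 was not. Irf7 (1417244_a_at), the factor that amplifies the interferon response and is itself an interferon target, measured 10.25, 10.65 and 9.07 in Spic-negative monocytes, Spic-positive monocytes and macrophages. Macrophages were lowest, with differences of -1.18 (2.27-fold) and -1.58 (2.99-fold), and the monocyte arrays differed by 0.40. A difference as low was found for 1080 genes (8.73%) against Spic-negative monocytes and for 501 genes (4.05%) against Spic-positive monocytes. Irf5, which drives inflammatory cytokine genes downstream of MyD88, measured 10.46, 10.04 and 9.47 on its brightest probe set (1460231_at). The level thus stepped down from Spic-negative monocytes to Spic-positive monocytes to macrophages, by -0.42 and then -0.57, and the difference of -0.99 between the ends lay just inside 2-fold. The other Irf5 probe set (1449678_at) measured 7.42, 5.64 and 5.48. Its order was the same but its difference between the monocyte arrays was -1.78 and that from Spic-positive monocytes to macrophages -0.16, so the probe sets disagree on where most of the step lies. With the mean of both probe sets Irf5 was past 2-fold lower both in Spic-positive monocytes (-1.10) and in macrophages (-1.46), each against Spic-negative monocytes.

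Irf3, which is present in most cells and acts first after viral nucleic acid is sensed, had 4 probe sets. The brightest (1426111_x_at) measured 9.42, 9.34 and 10.13 and the next (1416898_a_at) 7.51, 7.57 and 8.32. On both, the monocyte arrays lay within 0.08 log2 of each other and macrophages were higher by 0.72 to 0.81. The 2 dimmer probe sets went the other way. The first (1435271_at) measured 5.55, 6.09 and 4.43 and the second (1438721_a_at) 5.57, 5.35 and 5.01, each above the floor on both monocyte arrays and below it on the macrophage array. Irf3 stayed under 2-fold with the brightest, the mean and the median of its probe sets.

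Irf9 (1421322_a_at) measured 9.76 on the Spic-negative array, 9.83 on the Spic-positive array and 9.07 on the macrophage array. The monocyte arrays differed by 0.07, and macrophages were lower, with -0.69 and -0.76, less than 2-fold. A difference as low was found for 2296 genes (18.6%) against Spic-negative monocytes and for 2249 (18.2%) against Spic-positive monocytes.

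**Figure D3:**
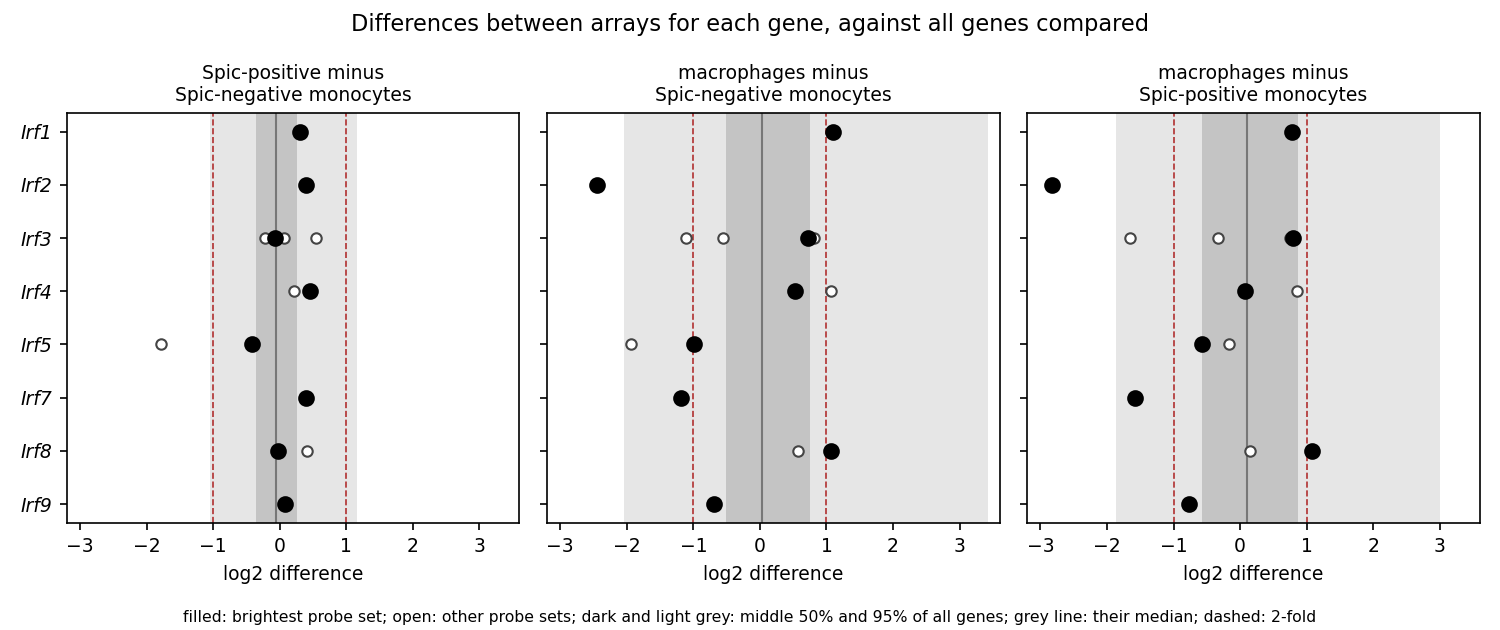
Log2 difference (horizontal axis) of each gene in the 3 comparisons, brightest probe set filled and others open, over the middle 50% (dark grey) and 95% (light grey) of the 12375 genes compared, with 2-fold dashed. Irf2 lies outside the light band in both macrophage comparisons, at -2.44 and -2.83, while between the monocyte arrays all brightest probe sets lie between -0.42 and 0.45.

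The DNA just before the start of Irf2, the member with the largest differences, is shown because it holds letters of the kind that the family itself binds. The 8 genes had 11 RefSeq promoter windows (assembly GRCm38.p6, 250 bases before to 50 after a start), which were searched on both strands for the ISRE core GAAANNGAAA and for GGAANNGAAA, a joint Ets and IRF element (EICE) of the kind that PU.1 or Spi-B and IRF4 or IRF8 bind together. Of all 32851 windows, 3.44% held the ISRE letters and 2.72% the EICE letters. Among the members, Irf2 alone held either, and its window held both. Its 250 bases before the start are printed 5′ to 3′ on the gene's strand (plus), with the matches in capitals.
Irf2 (chr8:46739495-46739744): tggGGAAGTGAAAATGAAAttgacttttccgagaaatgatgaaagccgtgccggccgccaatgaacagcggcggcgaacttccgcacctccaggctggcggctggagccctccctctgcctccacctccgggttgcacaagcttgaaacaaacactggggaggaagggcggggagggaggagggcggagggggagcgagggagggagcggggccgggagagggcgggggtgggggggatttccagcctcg
The EICE letters GGAAGTGAAA at -247 to -238 from the start overlap the ISRE letters GAAAATGAAA at -241 to -232. A match is a description of the letters and not of a bound site.

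Genes around the family were read as lists. All 13 partners and lineage factors lay above the floor (here, on at least 1 array). With Spic among the monocytes 1 was past 2-fold higher, beside 3.49% of all genes, and none lower, beside 3.06%. The higher gene was Spib, at 5.53, 7.99 and 7.005 in Spic-negative monocytes, Spic-positive monocytes and macrophages. Spi-B is also a B cell and plasmacytoid dendritic cell factor, and B cell markers were higher on the Spic-positive array. The part of such cells in the Spib level was not tested. PU.1 itself (Spi1) measured 10.28, 10.45 and 9.75, and Batf3, a partner of IRF8 in dendritic cells, 9.10, 9.54 and 9.60. In macrophages against Spic-negative monocytes Spib (1.48) and the E protein gene Tcf3 (1.01) were past 2-fold higher, and lower were Irf2bpl (-2.06), which encodes a relative of the IRF2 binding proteins, and the repressor gene Bcl6 (-1.60). These 2 of 13 in each direction are close to the 19.6% of all genes higher and 11.3% lower, and the median of the list was -0.01. Tcf3 fell short of 2-fold with the mean (0.26) or median (0.18) of its probe sets and after quantile normalization again (0.95).

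Several genes on the route from interferon to Irf1 and Irf9 were lower in macrophages. Of 10 measured genes of the receptors and of JAK-STAT signalling 9 were above the floor. None was 2-fold different between the monocyte arrays (median 0.05), close to the 3.49% of all genes higher and 3.06% lower. In macrophages against Spic-negative monocytes 4 of 9 were at least 2-fold lower, beside 11.3% of all genes. None was 2-fold higher, beside 19.6%, and the median was -0.66. Ifngr2, the second chain of the interferon gamma receptor, measured 11.02, 10.87 and 7.22, a difference of -3.80. With the mean or median of its probe sets Ifngr2 stood at -2.23, still past 2-fold. Its partner Ifngr1 differed by -1.25, the ISG15 protease gene Usp18, which also restrains the type I receptor, by -1.07, and Stat2, the partner of IRF9, by -1.02, which became -0.97 with median centring. The type I receptor chains differed less, Ifnar1 by -0.60 and Ifnar2 by -0.04.

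Many targets of ISGF3 were lower on the macrophage array, as were Irf7, Irf9 and Stat2. Of 21 measured targets 10 were at least 2-fold lower in macrophages than in Spic-negative monocytes, beside 11.3% of all genes. None was 2-fold higher, beside 19.6%, and the median was -0.75 beside 0.03 for all genes. The lowest differences were those of Oas3 (-3.43), Oasl2 (-2.63) and Oas2 (-2.05), which belong to the 2-5A synthetase family that senses double-stranded RNA, followed by the nucleic acid sensor gene Zbp1 (-1.98) and the RNA-activated kinase gene Eif2ak2 (-1.90). The antiviral GTPase genes Mx2 and Mx1 differed by -1.53 and -1.48, the RNA-editing enzyme gene Adar by -1.36, Ifit1 by -1.22 and Xaf1 by -1.16. Oas3 lay below the floor in macrophages, so the size of its difference depends on background. Other targets were level or higher without reaching 2-fold, among them Rsad2 (viperin) at 0.75, the ubiquitin ligase gene Trim25 at 0.65 and Ifit3 at 0.61. Against Spic-positive monocytes 10 of 21 were lower, beside 11.6% of all genes, and 1, Trim25 (1.33), was higher, beside 22.0%. Between the monocyte arrays the median was 0.05, and Ifit2 (1.47) was the 1 target past 2-fold, beside 3.49% of all genes higher and 3.06% lower. Under 8 alternative settings of normalization, probe set choice and floor, 9 to 10 targets were 2-fold lower in macrophages than in Spic-negative monocytes. With the mean of its probe sets Adar did not reach 2-fold against Spic-negative monocytes (-0.90) and was nearly level with Spic-positive monocytes (-0.10).

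Targets of IRF1 did not share a direction in macrophages. Of 19 above the floor, Gbp2 (1.37), Irgm2 (1.10) and the peptide transporter gene Tap2 (1.08) were past 2-fold higher than in Spic-negative monocytes and Ciita (-2.74), the MHC class II transactivator, was lower, with a median of -0.06. These 3 and 1 of 19 stand beside 19.6% and 11.3% of all genes, and Irgm2 was at 0.98 after quantile normalization again. The immunoproteasome gene Psmb9 differed by 0.94 and Psmb8 by -0.19. Between the monocyte arrays 17 of 19 were higher in Spic-positive monocytes in sign, beside 45.0% of all genes, with a median of 0.22. Ciita (1.78) and Gbp2 (1.64) were past 2-fold, 2 of 19 beside 3.49% of all genes higher. With the median of its probe sets Ciita differed by 0.91, short of 2-fold. Ciita is also transcribed in B cells, whose markers were higher on the Spic-positive array, and the part of this in its level was not tested. Against Spic-positive monocytes macrophages were lower in 4 of 19, namely Ciita (-4.52), Ido1 (-1.57), Nos2 (-1.43) and Nlrc5 (-1.13), beside 11.6% of all genes. Ido1 and Nos2 lay below the floor in macrophages, and with the floor at the 75th percentile of all probe sets 2 of 17 were lower, close to that share. With the mean or median of its probe sets Ciita stood at -2.53 or -2.32 against Spic-positive monocytes. Against Spic-negative monocytes it stood at -1.24 or -1.41.

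Upstream of Irf3, Irf5 and Irf7, 18 sensors, adaptors and kinases were measured and all lay above the floor on at least 1 array. None was 2-fold different between the monocyte arrays (median 0.14), close to the 3.49% of all genes higher and 3.06% lower. In macrophages against Spic-negative monocytes 4 were past 2-fold upwards and 2 downwards (median 0.06), close to the 19.6% and 11.3% of all genes, so the genes below are a description and do not set the list apart. The higher ones were the endotoxin receptor gene Tlr4 (6.34, 5.84 and 9.13 on the arrays), the receptor for double-stranded RNA Tlr3 (4.96, 4.65 and 7.56, below the floor in both monocyte groups), Mavs, the adaptor of the cytoplasmic RNA sensors (1.23), and the ubiquitin ligase gene Traf6, whose difference of 1.19 became -0.05 with the mean and 0.49 with the median of its probe sets. With the mean, Tlr4 and Tlr3 differed by 1.49 and 1.39. The lower ones were Sting1, the adaptor of cytoplasmic DNA sensing (-1.26), and Ticam1, the TRIF adaptor that Tlr3 and Tlr4 use (-1.08). The IRF kinase genes Tbk1 and Ikbke differed by 0.60 and -0.98, and against Spic-positive monocytes Ikbke (-1.10) and the DNA sensor gene Cgas (-1.38) were past 2-fold lower too, Ikbke not with median centring (-0.98).

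Of the brakes on IRF proteins, 5 were measured. None differed by 2-fold between the monocyte arrays, close to the 3.49% of all genes higher and 3.06% lower. In macrophages against Spic-negative monocytes Tnfaip3 (A20) was higher by 1.06. Eif4ebp2, a repressor of translation that limits IRF7 protein, was lower with -1.19. This is 1 of 5 in each direction, beside 19.6% of all genes higher and 11.3% lower. Neither gene reached 2-fold with the mean of its probe sets (0.69 and -0.57) or the median (0.69 and -0.04). Of 7 interferon genes 3 were above the floor on some array. Ifng measured 3.08, 3.22 and 6.63, above the floor in macrophages alone, on the array with the highest NK cell marker sum. The part of NK cells in the Ifng level was not tested. Ifnb1 measured 4.15, 4.18 and 5.52. Ifna1 belongs to a family of near-identical copies, so its 5.92, 6.26 and 5.14 cannot be assigned to 1 gene.

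Genes tied to Irf8 and Irf4 did not follow them uniformly. Of 8 measured genes tied to IRF8 in myeloid cells, 1 was past 2-fold lower in macrophages than in Spic-negative monocytes. That is close to the 11.3% of all genes, and none was higher, beside 19.6%. The lower gene, Cybb, encodes the catalytic subunit of the phagocyte oxidase and measured 13.08, 13.21 and 11.80, lower where Irf8 was highest. The other 7 differed by less than 2-fold from Spic-negative monocytes, among them Klf4 (-0.31), Ctss (-0.27) and Csf1r (0.18). Of 8 genes tied to IRF4 above the floor, 4 were higher and 2 lower in macrophages than in Spic-negative monocytes, beside 19.6% and 11.3% of all genes. The mannose receptor gene Mrc1 (6.24), Arg1 (2.14), Pdcd1lg2 (1.94) and Ccl22 (1.10) were higher, the last 3 from levels below the floor in Spic-negative monocytes, and the demethylase gene Kdm6b (-2.13) and Chil3 (-1.29) lower. With the mean or median of its probe sets Kdm6b stood at -0.39 or -0.60, short of 2-fold. Over the 8 alternative settings the median of this list ran from -0.77 to 1.27 around its value of 1.02, so its direction was not settled. Between the monocyte arrays Pdcd1lg2 (1.20) was the 1 of 8 past 2-fold, beside 3.49% of all genes higher.

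**Figure D4:**
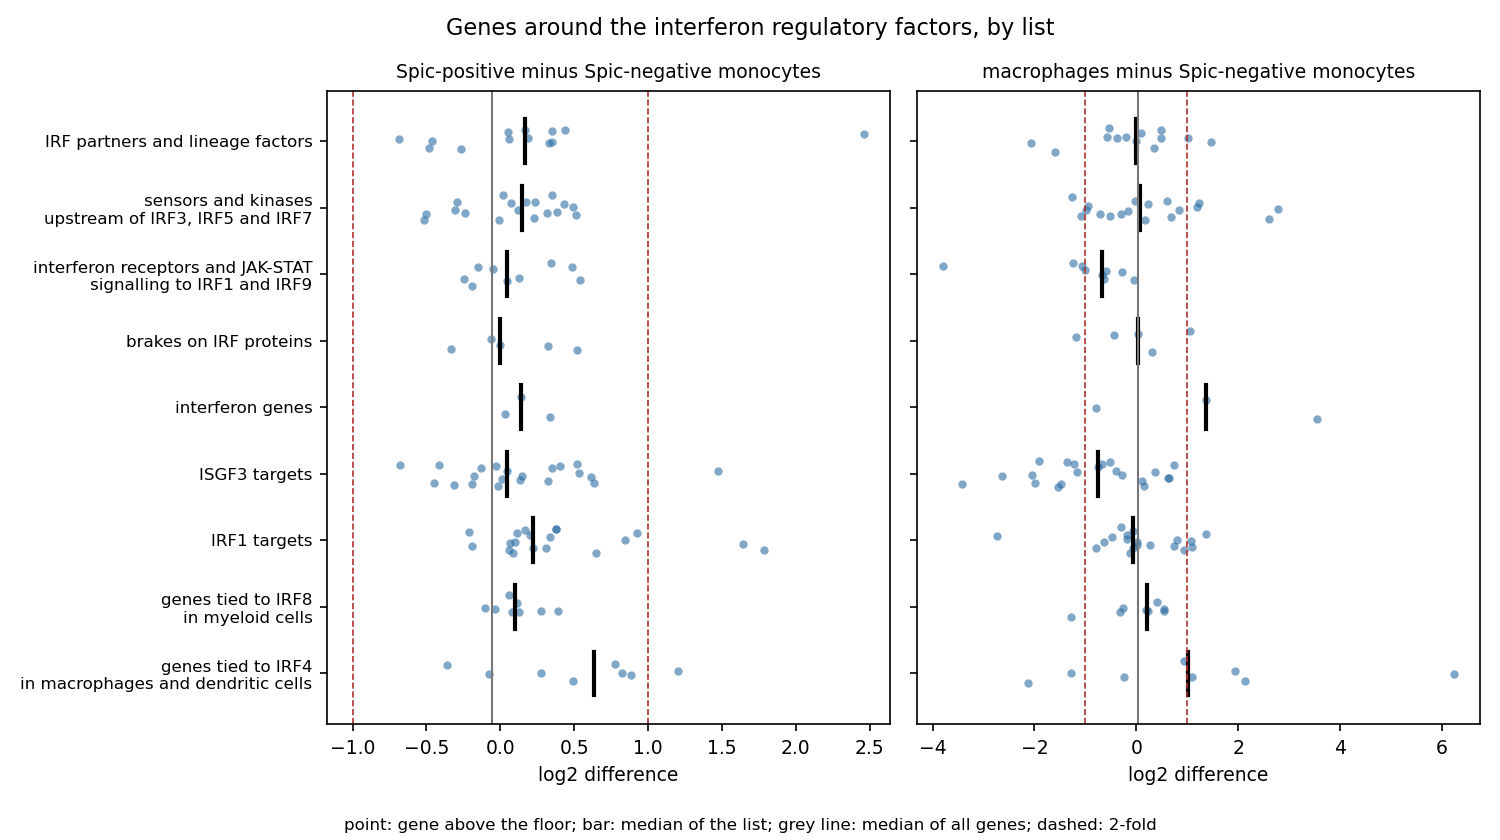
Log2 difference (horizontal axis) of every gene above the floor in each list, for Spic-positive against Spic-negative monocytes (left) and macrophages against Spic-negative monocytes (right), with the list median as a bar, the median of all genes as a grey line and 2-fold dashed. The ISGF3 targets have their median at 0.05 on the left and at -0.75 on the right, while that of the IRF1 targets is 0.22 and -0.06.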

How the data were processed

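RNA from 3 sorted populations, 1 array each, was amplified over 2 cycles and labelled with biotin, per the labels' protocols. The authors deposited 1 log2 value per probe set and array, computed with RMA per the submitters' processing notes. Its version is not given in the sources, and the log2 scale was read from the range of 1.82 to 14.50. RMA gives all arrays nearly the same distribution of values, which hides any change in RNA content per cell. Array number limits the precision.

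Of 45037 probe sets other than 64 controls, the platform annotation gave 1 symbol for 34945, several for 932, which name no gene here, and none for 9160. Symbols were updated through the gene identifier with RefSeq (GRCm38.p6). The brightest probe set stood for each of 18193 genes, and the 12375 genes whose highest array lay above the floor were compared at 2-fold. An item withheld for evaluation is not reported here. The members and lists were chosen with earlier results of these data known. Genes named are the members, list genes past 2-fold or used as a contrast to them, and, for members spanning at least 1 log2, the 3 genes with the nearest profile; list genes under 2-fold were picked after their values were seen. The alternatives were other probe set summaries, median centring, quantile normalization again, cyclic loess, other floors, no probe sets ending in _s_at or _x_at, and 1.5-fold or 4-fold. Fold counting and motif search were tested on simulated data. Software was limma 3.58.1 under R 4.3.3, and pandas 2.3.3, numpy 2.4.6 and matplotlib 3.10.9 under Python 3.11.15.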

Additional observations from a re-analysis of the deposited data

How the results depend on the processing

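Of 84 values for the counts and medians of the 8 genes under alternatives, 69 stayed within a set limit. For a count the limit was 1.5 times the reported count. For a median log2 difference it was a shift of 1.5-fold, within which a small median can turn sign. With the mean and equally with the median of a gene's probe sets, 1 member in place of 0 was 2-fold lower with Spic among the monocytes (Irf5), 1 in place of 2 was higher in macrophages than in Spic-negative monocytes, and 0 in place of 1 higher than in Spic-positive monocytes, both through Irf8. Without probe sets ending in _s_at or _x_at, which leaves out Irf2, 1 in place of 2 was lower in each macrophage comparison and the median against Spic-negative monocytes was 0.52 in place of -0.08. That against Spic-positive monocytes turned sign too, from -0.25 to 0.07, though within the limit. At 4-fold none was higher (0 and 0) and 1 lower in each macrophage comparison, Irf2. At 1.5-fold 4 were lower in macrophages than in Spic-negative monocytes and 3 higher than in Spic-positive monocytes. Irf5 also passed 2-fold in macrophages after quantile normalization again (-1.04). The sign of small differences turned for Irf3 and Irf8 between the monocyte arrays, for Irf3 in both macrophage comparisons and for Irf4 between macrophages and Spic-positive monocytes.

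Median centring moved the median difference of all genes between macrophages and Spic-positive monocytes from 0.10 to 0.23, and quantile normalization moved it to -0.03. Of genes 2-fold different between the monocyte arrays 53.3% were higher in Spic-positive monocytes, and 42.8% after median centring. The 379 genes 2-fold lower there became 237 with the mean of probe sets, and the 432 higher became 249 with a floor at the 75th percentile, which also took the genes lower in macrophages than in Spic-positive monocytes from 1435 to 943. No paired analysis was possible because each group has 1 array. A difference the size of the gap between probe sets of a gene cannot be told from error here.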

Other observations

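The genes nearest to a member in profile were sought for the 4 genes spanning at least 1 log2, as the smallest Euclidean distance between log2 values centred over the 3 arrays. Nearest to Irf2 were Capn1, a calcium-dependent protease gene, at 8.02, 8.46 and 5.64 in Spic-negative monocytes, Spic-positive monocytes and macrophages (distance 0.045), the sodium/proton exchanger gene Slc9a7 (0.084) and Mansc1 (0.12). Nearest to Irf7 were Zmiz2 at 8.91, 9.31 and 7.72 (0.0045), Dnajb14 (0.034) and Iqsec3 (0.034). Nearest to Irf1 were the centromere gene Cenpn at 6.65, 6.97 and 7.73 (0.014), Smc6 (0.019) and Snx8 (0.024), and nearest to Irf8 were Zkscan17 at 7.53, 7.51 and 8.59 (0.0061), Marchf3 (0.020) and Mrpl18 (0.022). Over 3 arrays many genes lie this near, so the list describes these profiles only.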
